A study of Mus musculus with 2 samples.

Results

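The peaks described here are places in newborn mouse hindbrain where CTCF sat on DNA annotated as the untranslated part of a protein-coding gene's transcript. Of 61263 optimal peaks on chromosomes 1 to 19, 1134 were members. Their summit, the base of highest signal, lay in an untranslated region (UTR) of a protein-coding gene in the GENCODE vM21 annotation, outside every coding sequence and more than 1 kb from every annotated start site. The coding sequence split them into 1094 peaks on the 3′ side, in 1027 genes, and 40 on the 5′ side, in 39 genes. The rule uses positions and annotation, and no signal value, motif or library list beyond the authors' selection of optimal peaks.

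CTCF was mapped by ChIP-seq, which sequences the DNA recovered with an antibody against the protein. There was 1 group of 2 libraries, from strain B6NCrl mice at postnatal age 0 days, with no treatment or engineered allele named. Hindbrains from several dissections were pooled and pulverised, sex was not recorded, and both libraries came from the same pooled biosample although their labels number them as biological replicates 1 and 2, and what separates them may be technical spread. Each library has a list of 300000 peaks, and the optimal set of 62686 peaks over all chromosomes holds those that the authors' irreproducible discovery rate (IDR) procedure passed across the lists. No read counts were given, so depth is unknown, and peak lists hold no expression values against which the tissue label could be checked. With 1 group and no replicate of a condition, no p-value is given. Intervals are 95% and cover counting error over peaks or sites only.

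CTCF is a zinc-finger protein that binds a long, directional DNA motif and, with cohesin, anchors chromatin loops and domain boundaries. Methylation of CpG in its motif can weaken binding. UTRs flank the coding sequence of an mRNA, and the 3′ UTR carries sites for microRNAs and RNA-binding proteins and ends at the cleavage and polyadenylation site. Within genes, CTCF is known to affect elongation by RNA polymerase II, exon inclusion and the choice of polyadenylation site.

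The sequences under strong members on each side and under strong members with an exact match are shown because the occupancy results below turn on this element. Each run reads 5′ to 3′ on the strand of the motif, from the GRCm38 (mm10) assembly, and the capitals mark the best match to a 14 bp CTCF core consensus. Ptp4a3, Frmd8, Dand5 and Mapk1ip1 have 0 mismatches, Gna15, Dnajc11, Slc4a3 and A930004D18Rik have 1, and Pomgnt2 has 2.
Ptp4a3, 3′ UTR, chr15:73757341-73757370, minus strand: agggatggCCACCAGAGGGCGCcatggagg
Frmd8, 3′ UTR, chr19:5850354-5850383, minus strand: agctgtgaCCAGCAGGGGGCAGctgagccc
Dand5, 3′ UTR, chr8:84815721-84815750, minus strand: gcttttagCCACTAGGTGGCACcgcgtccc
Gna15, 3′ UTR, chr10:81502810-81502839, plus strand: acgcgcggCCACCAGGGGGAGGtatgtcct
Dnajc11, 3′ UTR, chr4:151981548-151981577, plus strand: gtgagtggTCAGCAGGTGGCGCtgctgccc
Slc4a3, 3′ UTR, chr1:75559725-75559754, minus strand: aatcggatCCGCCAGGTGGCAGccttcccc
Mapk1ip1, 5′ UTR, chr7:138840906-138840935, plus strand: tgtctcatCCAGCAGAGGGCAGcagctccc
A930004D18Rik, 5′ UTR, chr2:18027535-18027564, plus strand: ccctggcaCCTGCAGGGGGCGCtggtgcct
Pomgnt2, 5′ UTR, chr9:121983713-121983742, plus strand: tcctatcgCCACCAGGGGGCCTcagcgaga

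The 3′ peaks lay in the bodies of long terminal exons. In all, 1075 of 1094 were in the last exon of their transcript. The share of eligible 3′ UTR bases in last exons was not computed, so this count may only follow the annotation. The median summit was 914 bases past the stop codon, and the median distance to the transcript end was 943 bases. Their UTRs had a median length of 2326 bases, and 53 genes had 2 such peaks and 7 had 3. The peak nearest to a stop codon, in C1ql2, a C1q-related secreted protein of synapses, had its summit 0 bases into the UTR, and the one nearest to a transcript end, in the cytochrome P450 gene Cyp4f18, was 6 bases from it. Of the 40 peaks on the 5′ side, 10 were in the first exon, 22 in the second and 8 in a later one, with a median of 204 bases left to the coding start. Among the 3′ members, 11 lay in UTRs of genes on opposite strands, so that no single gene strand applies. Another peak lay in the 3′ exon that 21 gamma protocadherin genes share, which encode cell adhesion proteins of neurons. This peak was singled out after its values were seen: its signal was 131 in the optimal set, with 78.1 in library 1 and 53.8 in library 2.

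The 20 members just inside the 1 kb limit, 1004 to 1100 bases from a start site, had a median signal of 89.4, and the 24 UTR summits just outside it, 903 to 996 bases away, had a median of 86.9. A motif with at most 2 mismatches lay at 45% of the peaks just inside and at 50% of those just outside. All 1905 UTR summits within 1 kb of a start site, which the rule leaves out, had a median signal of 51.8 and a motif in 29.97%, against 96.8 and 69.3% for the members.

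Most members, like most optimal peaks, were among the strongest peaks of both libraries. Of the 1134, 983 (86.7%, Wilson interval 84.6 to 88.5%) were overlapped by at least 1 bp by a peak among the 62686 strongest of each library, against 83.2% of all optimal peaks. By library, 92.8% were overlapped in library 1 and 90.8% in library 2. At a reciprocal overlap of 50%, both libraries covered 77.0%. Across the 1087 3′ peaks listed in both, the signals of the libraries had a Spearman rho of 0.964, and across the 40 5′ peaks 0.885. The overlaps and both correlations are descriptions over peaks, which share the pooled tissue and were selected by IDR from these lists. Agreement with the lists was therefore partly set by the selection.

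**Figure D1:**
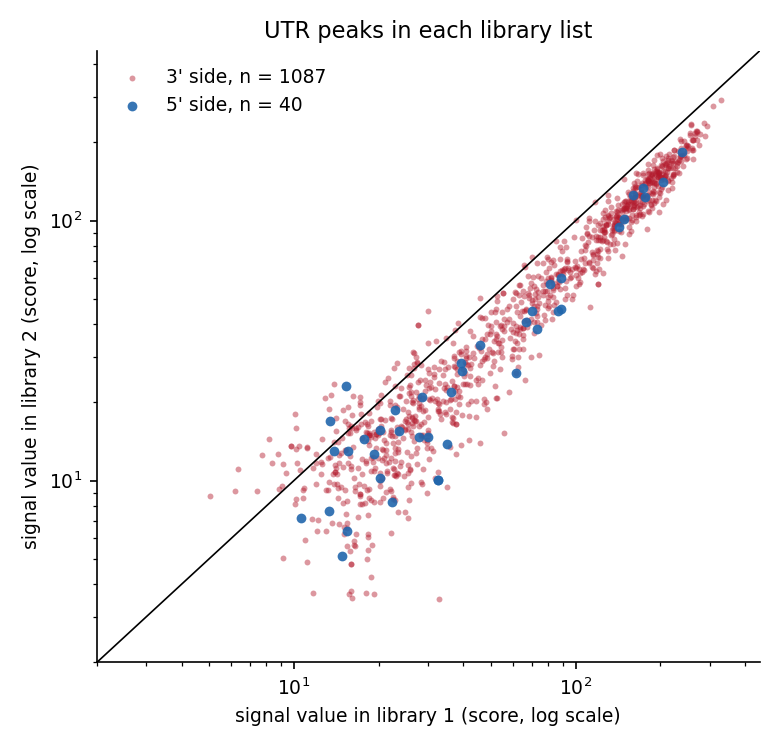
Signal value of each UTR peak in the list of library 1 (x axis) and library 2 (y axis), both scores on log scales, for the 3′ and 5′ members listed in both. The black line marks equal values; most points lie below it, and the 3′ members had a median of 60.8 in library 1 and 40.0 in library 2.

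Peaks in 3′ UTRs were stronger than those in coding exons and introns. The deposited signal value is a score on the peak caller's own scale, used here only within the optimal list. Its median was 98.9 on the 3′ side (order-statistic interval 88.9 to 112) and 47.96 on the 5′ side (38.2 to 109), against 66.6 for coding peaks, 70.1 for intronic peaks, 91.1 for intergenic peaks, 61.9 for peaks within 1 kb of a start site and 80.8 for peaks in other exons, those of non-coding genes or transcripts. Above the median of all peaks lay 56.1% of UTR members, against 46.2% of coding peaks, a difference of 9.88 points (Newcombe interval 5.75 to 14.0). UTR members exceeded intronic peaks by 7.63 points (4.66 to 10.6), and the difference from intergenic peaks, 0.82 points, had an interval that includes 0 (−2.16 to 3.76), as did that from peaks in other exons, 4.03 points (−0.26 to 8.31). For the 3′ side alone the difference was 4.62 points from other exons (0.29 to 8.93) and 1.41 points from intergenic peaks (−1.62 to 4.39). The 1000 strongest peaks held 22 members, all on the 3′ side, or 1.94% of the members beside 1.63% of all peaks.

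**Figure D2:**
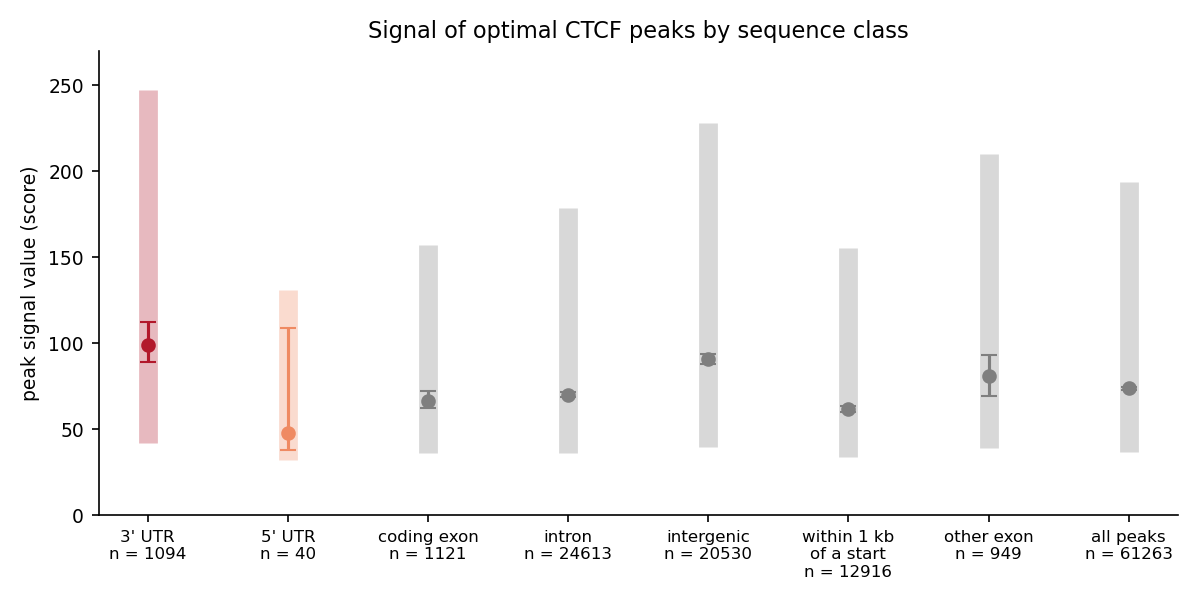
Signal value (score, y axis) of optimal peaks by the sequence class of their summit (x axis). Points are medians with their 95% intervals and pale bars span the quartiles; the 3′ UTR median of 98.9 was above that of coding peaks, 66.6, and intronic peaks, 70.1.

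The strongest 3′ peaks were in genes of varied function. Rdh13, which encodes a mitochondrial retinol dehydrogenase, had the highest signal, 611 (rank 21 of the optimal set), with 329 in library 1 and 290 in library 2, at chr7:4427205-4427649. Ptges2, a prostaglandin E synthase, had 579 in the optimal set, 307 in library 1 and 276 in library 2. Gna15, a G protein alpha subunit, had 524, with 285 and 238 in libraries 1 and 2. The other 7 of the 10 strongest ran from 488 to 524 and included the glucose-6-phosphate transporter Slc37a2 (524), the tyrosine phosphatase Ptp4a3 (500), the mitochondrial co-chaperone Dnajc11 (494), the polarity protein Pard6g (490) and the anion exchanger Slc4a3 (490). All 10 ranked among the strongest 1000 in both libraries. Their summits ranged from 38 bases past the stop codon in Gna15 to 2558 bases past it in Ptges2, so the strongest peaks were not at 1 position in the UTR.

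On the 5′ side the strongest peak, in A930004D18Rik, had a signal of 421, with 239 in library 1 and 183 in library 2. Pomgnt2, a glycosyltransferase that modifies dystroglycan, had 347, with 205 and 141 in libraries 1 and 2, 14 bases before the coding start. The sphingosine-1-phosphate receptor gene S1pr1 had 307, Nxpe4 299 and the insulin gene Ins2 290. These 5 peaks were below the 10 strongest on the 3′ side. Their exon was the second in every case but Ins2, where it was the third.

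The weakest members lay beside other summits. In the F-box gene Fbxo41 the 3′ peak had a signal of 7.33 with another summit 199 bp away, and in the sialyltransferase gene St3gal1 the 5′ peak had 12.2 with another summit 211 bp away. The library values at such peaks may belong to the neighbour, since 1 library peak can overlap both summits. Of the 7 genes with 3 members, the 3 with the largest summed signal spread it unevenly. In Cmtr1, an mRNA cap methyltransferase, the signals were 7.58, 34.6 and 405. Mgat5, an enzyme that branches N-glycans, had 72.0, 150 and 202, and the uroplakin gene Upk3b had 43.2, 57.9 and 294.

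Most members held a CTCF motif, more often than coding peaks did. A match with at most 2 mismatches lay wholly within 50 bp of the summit at 786 of 1134 members (69.3%, 66.6 to 71.9%), beside 65.3% of all optimal peaks. Windows of the same size 1 kb to each side of the members held one in 2.91%. The share was 69.8% on the 3′ side and 55.0% on the 5′ side (22 of 40, 39.8 to 69.3%). UTR members exceeded coding peaks, at 59.0%, by 10.3 points (6.39 to 14.3) and peaks near start sites, at 46.4%, by 22.9 points (20.03 to 25.7). The difference from introns, 0.35 points, had an interval that includes 0 (−2.46 to 3.03). From intergenic peaks, at 72.7%, UTR members differed by −3.44 points (−6.25 to −0.75), and from peaks in other exons, at 69.5%, by −0.23 points (−4.19 to 3.75). An exact match lay at 145 members (12.8%, 10.97 to 14.9%), beside 8.71% of all optimal peaks. It lay at 69 coding peaks (6.16%, 4.89 to 7.72%), 8.74% of intronic, 11.2% of intergenic and 8.32% of other exonic peaks.

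Signal went with the motif. The median was 149 at UTR members with a match and 45.4 at those without. In signal quartiles of the 3′ peaks from weakest to strongest, the share with a match was 44.9%, 62.6%, 81.3% and 90.5%. A few strong peaks had no counted match. Rdh13, Coa5, a cytochrome oxidase assembly gene (473), and Skap2, a Src kinase adaptor gene (467), were the strongest of these. In Skap2 an exact match was centred 46 bp from the summit, so that it ran past the window, and in Rdh13 the nearest match, with 2 mismatches, was 56 bp away inside the peak. In Coa5 the nearest was 5600 bp away, although a match with 3 mismatches lay under the summit.

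No preferred direction of the motif was detected at peaks in 3′ UTRs. Of 744 3′ peaks whose best match has 1 strand, 360 (48.4%, 44.8 to 52.0%) carried it on the gene's own strand, and the median signal was 163 for those and 145 for motifs on the opposite strand. Among 3′ UTR matches with at most 1 mismatch and no summit within 50 bp, 219 of 497 (44.1%, 39.8 to 48.5%) read with the gene. With a summit, 219 of 448 did (48.9%, 44.3 to 53.5%). On the 5′ side 5 of 22 peaks (22.7%, 10.1 to 43.4%) read with the gene, so their motif was mostly on the opposite strand. Of 5′ UTR matches without a summit, 4 of 12 read with the gene (33.3%, 13.8 to 60.9%). These are too few to tell whether the lean was particular to peaks. For 176 genes a 3′ motif could be set beside the motif of a peak within 1 kb of a start of the same gene, at a median distance of 22998.5 bp. The pair pointed towards each other in 52 (29.5%, 23.3 to 36.7%), away from each other in 45 (25.6%), along the gene in 41 (23.3%) and against it in 38 (21.6%). No arrangement stood clear of the others beyond counting error.

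CTCF peaks were denser in 3′ UTRs than in introns or intergenic DNA, and sparser than in coding sequence. Counting only bases where a member could lie, there were 36.8 peaks per Mb of 3′ UTR (exact Poisson interval 34.6 to 39.0) over 29.7 Mb and 64.5 per Mb of 5′ UTR (46.1 to 87.8) over 0.62 Mb. Coding sequence had 46.7, introns 25.5, intergenic sequence 17.1, sequence within 1 kb of a start site 85.9, and other exons 35.9. The density in 3′ UTRs was 1.44 times that in introns (1.36 to 1.53), 2.15 times that in intergenic sequence (2.02 to 2.29) and 0.79 times that in coding sequence (0.72 to 0.86). Against other exons the ratio was 1.02, with an interval that includes 1 (0.94 to 1.12). Across chromosomes it ran from 23.1 per Mb on chromosome 16 (14.8 to 34.4) to 47.5 on chromosome 17 (36.3 to 61.0). GC content moved with the coding comparison but little with the intron one: it was 42.8% in 3′ UTRs, against 50.97% in coding sequence and 42.2% in introns. Repeat-masked bases made up 19.4% of 3′ UTR, against 4.75% of coding and 29.8% of intronic sequence. Their part in the densities was not tested.

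Consensus sites in 3′ UTRs were occupied more often than those in coding, intronic or intergenic sequence. A site is any match with at most 1 mismatch in the genome, and it counts as occupied when it lies wholly within 50 bp of a summit. In 3′ UTRs 454 of 958 sites were occupied (47.4%, 44.2 to 50.6%), beside 35.0% of all sites on these chromosomes. There were 32.2 sites per Mb of 3′ UTR, against 44.5 per Mb of coding sequence, where 327 of 1068 were occupied (30.6%, 27.9 to 33.45%). The occupied share in 3′ UTRs was 16.8 points above coding sequence (12.5 to 20.9), 10.2 points above introns (6.98 to 13.4) and 16.9 points above intergenic sequence (13.7 to 20.1). Other exons came closer, with 41.0% occupied, a difference of 6.37 points (1.80 to 10.9). Sites near start sites were occupied in 44.9%, and the 3′ UTR difference from them, 2.48 points, had an interval that includes 0 (−0.90 to 5.89). In 5′ UTRs 6 of 18 sites were occupied (33.3%, 16.3 to 56.3%), too few to place them in this order. A neighbouring peak can occupy a site from outside the UTR, so occupied sites and members are counted separately.

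**Figure D3:**
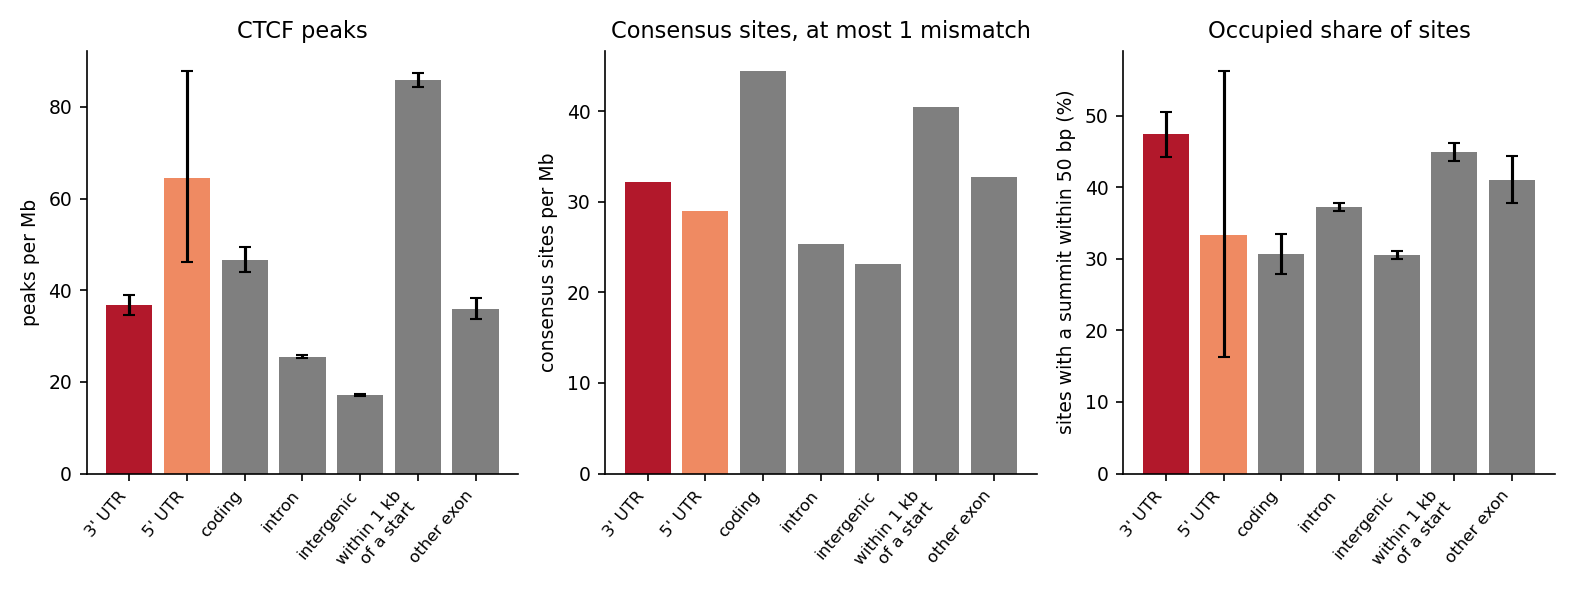
Peaks per Mb (left, exact Poisson 95% intervals), consensus sites with at most 1 mismatch per Mb (middle) and the percent of those sites with a summit within 50 bp (right, Wilson 95% intervals), by sequence class. 3′ UTRs have fewer peaks and sites per Mb than coding sequence but a larger occupied share, 47.4% against 30.6%.

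The occupied share was above that of coding sequence for exact sites and sites with 1 mismatch, and with and without a CpG. Of exact sites, 143 of 154 in 3′ UTRs were occupied (92.9%, 87.7 to 96.0%), against 69 of 85 in coding sequence (81.2%, 71.6 to 88.1%), a difference of 11.7 points (3.05 to 21.8), while other exons had 79 of 82 (96.3%). Of sites with exactly 1 mismatch, 38.7% in 3′ UTRs were occupied, against 26.2% in coding sequence (12.4 points, 8.08 to 16.8) and 31.6% in introns (7.12 points, 3.75 to 10.6). Within 1 kb of a start site 40.1% of sites with exactly 1 mismatch were occupied, and the 3′ UTR difference was −1.45 points (−5.01 to 2.21). Exact sites were commoner per base in 3′ UTRs, at 5.18 per Mb, than in coding sequence, at 3.54, and introns, at 2.57. Sequence within 1 kb of a start site had a similar 5.10 per Mb, and 5′ UTRs had 6.45 per Mb on 4 sites. CpG at positions 12 and 13 of the site, counted from its 5′ end, is a place where methylation can bear on binding. Of sites with that CpG, 149 of 193 were occupied in 3′ UTRs (77.2%) against 48.8% in coding sequence, a difference of 28.4 points (19.8 to 36.1). Of sites without it, 39.9% were occupied in 3′ UTRs and 23.5% in coding sequence, a difference of 16.4 points (11.8 to 20.9). Against other exons the 3′ UTR differences were smaller. They were −3.48 points (−9.21 to 3.77) for exact sites and 3.47 points (−1.28 to 8.20) for sites with exactly 1 mismatch. With the CpG the difference was 11.2 points (1.74 to 20.5), and without it 4.50 points (−0.46 to 9.42). Methylation itself was not measured.

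The gap to intergenic sequence was smaller outside repeats. Outside repeat-masked bases 49.1% of 3′ UTR sites were occupied, against 44.0% in intergenic sequence (5.07 points, 1.64 to 8.51), 42.9% in introns (6.17 points, 2.74 to 9.60) and 30.2% in coding sequence (18.9 points, 14.4 to 23.2). Other exons had 44.8% occupied outside repeats, and the difference, 4.21 points, had an interval that includes 0 (−0.93 to 9.31). Inside repeats the share was 34.0% in 3′ UTRs (25.6 to 43.4%) and 36.7% within 1 kb of a start site. It was 12.96% in intergenic sequence, 25.2% in introns and 30.6% in other exons. Coding sequence had 18 of 45 occupied there (40%, 27.0 to 54.5%), so 3′ UTRs were not above it inside repeats: the difference was −6.04 points (−22.8 to 10.01). Member summits lay in repeats in 11.6%, beside 18.5% of all peaks. Members rarely shared a sequence: comparing the match with 10 bases on each side, Arhgef4 and Mob1b formed the only identical pair among the 786 members with a match.

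**Figure D4:**
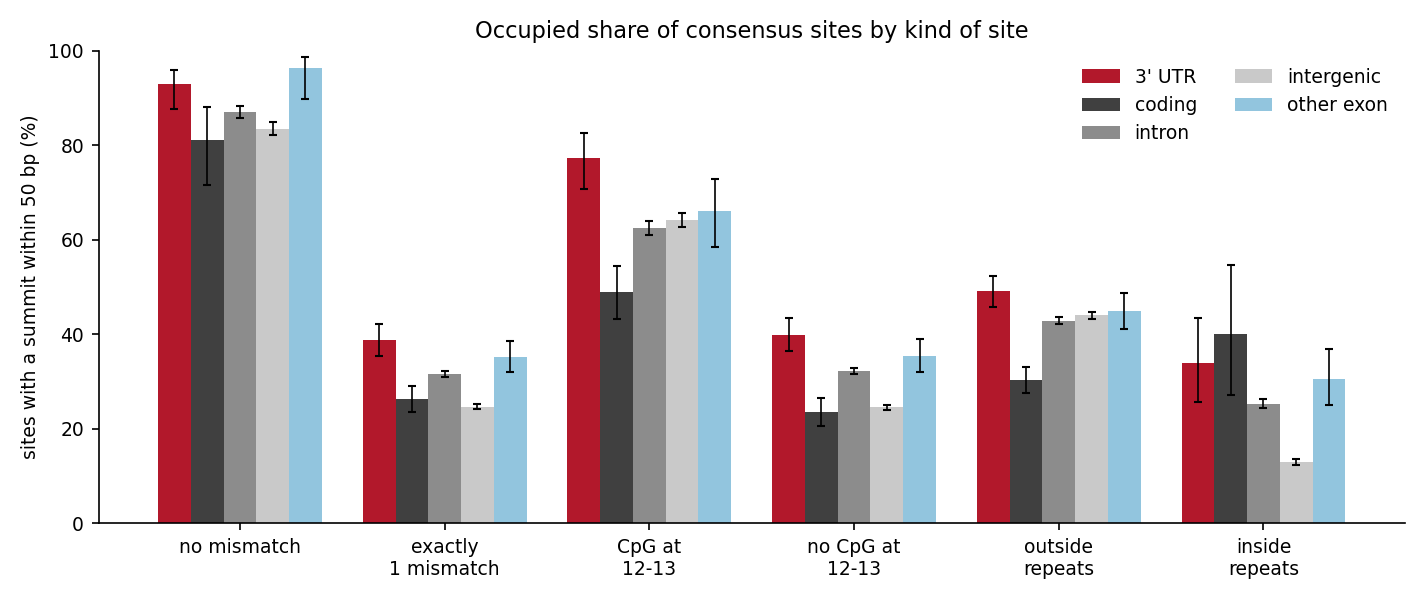
Percent of consensus sites (at most 1 mismatch) with a summit within 50 bp, with Wilson 95% intervals, for sites of each kind in 3′ UTR, coding, intronic, intergenic and other exonic sequence. Sequence within 1 kb of a start site is not drawn. Of the classes drawn, 3′ UTR has the highest bar except for exact sites and sites inside repeats. It reads 92.9% against 96.3% in other exons for exact sites, and 34.0% against 40% in coding sequence inside repeats. Its difference from other exons had an interval that includes 0 for every kind of site except those with the CpG.

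Along the 3′ UTR, peaks were spread from the stop codon to the transcript end. Representative 3′ UTRs were cut into 5 equal bins, counting each base once. From the stop codon on, the bins had 41.0, 41.6, 39.1, 45.4 and 32.8 peaks per Mb. The bin at the stop codon had 1.25 times the density of the bin at the transcript end, with an interval that includes 1 (0.996 to 1.58). The fourth bin was the densest (39.2 to 52.2) and the bin at the transcript end the sparsest (27.6 to 38.7), and these intervals do not overlap. The occupied share of sites was 41.5%, 46.0%, 44.8%, 60.1% and 41.0% in the same order. The fourth bin stood highest, with 101 of 168 sites occupied (52.6 to 67.2%), and it also held the most exact sites, 38. Among its sites with exactly 1 mismatch 49.2% were occupied (40.8 to 57.7%), against 31.4% to 38.6% in the other bins. That bin was picked out because it was the highest of 5, so its distance from the others is a description.

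**Figure D5:**
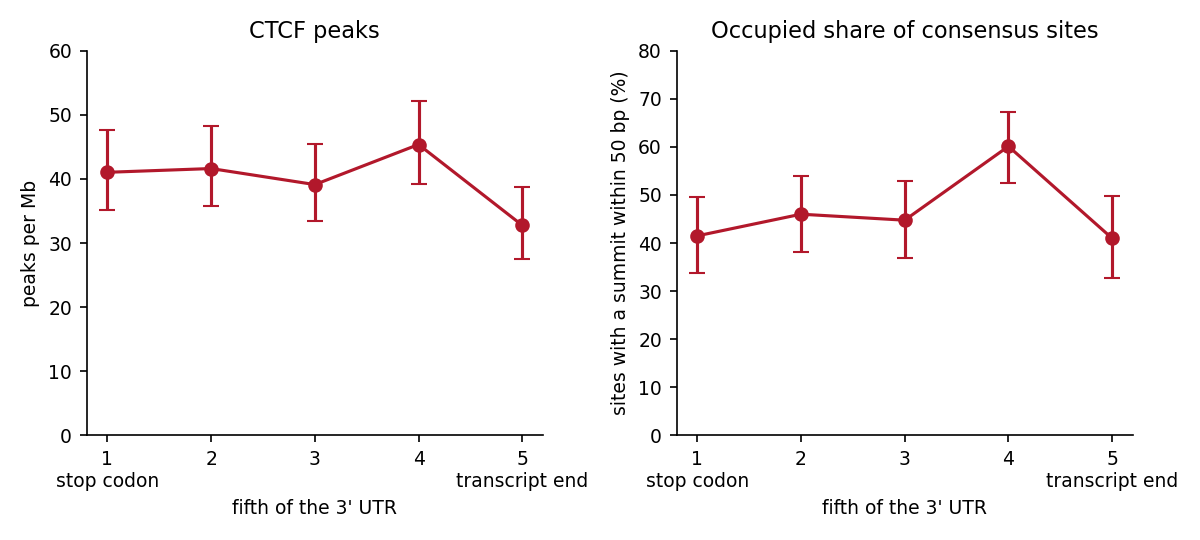
Peaks per Mb (left, exact Poisson 95% intervals) and percent of consensus sites with a summit within 50 bp (right, Wilson 95% intervals) in 5 equal bins of representative 3′ UTRs, from the stop codon to the transcript end. The fourth bin has the largest occupied share, 60.1%, and the bin at the transcript end the lowest density, 32.8 peaks per Mb.

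No difference in density was detected between 3′ UTR sequence upstream of and beyond the first annotated transcript end. Density close around the ends was not measured. In genes whose 3′ UTR holds another annotated transcript end, there were 203 peaks beyond the first end (37.3 per Mb, 32.3 to 42.7) and 56 upstream of it (37.8 per Mb, 28.5 to 49.1), a ratio of 0.99 (0.73 to 1.35). Sites were occupied in 48.2% beyond the first end and 38.2% upstream of it, a difference of 10.01 points whose interval includes 0 (−5.17 to 23.9). The polyadenylation signal AATAAA, searched on the gene's strand only, was less frequent under the peaks than along the UTRs. It lay in 32 of 1083 windows of 101 bp centred on 3′ summits (2.95%, 2.10 to 4.14%), beside 8.69% of windows of that length tiling 3′ UTRs. The windows under the peaks were richer in GC, with a median of 53.5% against 42.8% over eligible 3′ UTR sequence, and the part of base composition in this difference was not tested.

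Genes with a 3′ UTR peak had long 3′ UTRs. Of 17798 genes with eligible 3′ UTR in their representative transcript, 813 (4.57%) had such a peak there. Their median eligible length was 2148 bases, against 677 bases in genes without one. By quartile of length from shortest to longest, 0.27%, 2.60%, 4.40% and 10.98% of genes had a peak, while the density per Mb was 25.4, 58.6, 41.0 and 37.5. A peak within 1 kb of a start site was present in 406 of the 813 genes (49.9%), against 42.7% of the others, a difference of 7.19 points (3.68 to 10.7), beside 43.1% of all these genes. Within the length quartiles that difference was 2.14, −7.26, 2.86 and 2.75 points from shortest to longest, and each interval includes 0. The intervals in the 2 longer quartiles (−4.21 to 9.97 and −1.94 to 7.39) include the pooled difference as well.

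Genes with a 3′ UTR peak more often had a neighbour running towards them. The next gene downstream was within 5 kb and on the opposite strand, so that the 3′ ends face each other, for 237 of 813 genes with a peak (29.2%), against 22.6% of genes without, a difference of 6.52 points (3.43 to 9.79). In the longest quartile of 3′ UTRs the shares were 27.4% and 18.7%, a difference of 8.71 points (4.74 to 12.99), and in the next longest 30.6% and 22.9%, a difference of 7.71 points (1.55 to 14.6). The direction was the same in the 2 shorter quartiles, with differences of 5.51 points (−2.30 to 14.5) and, on 12 genes with a peak, 35.3 points (8.85 to 57.6). A next gene within 5 kb on either strand, which includes the facing ones, was present for 40.3% and 34.4%. That difference, 5.95 points (2.56 to 9.44), was no larger than the 6.52 points for facing neighbours alone. It therefore does not show that neighbours on the same strand were commoner. The part of gene spacing was not tested.

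UTR peaks reached several genes of RNA regulation and axon guidance. Over all protein-coding genes with eligible UTR, 1095 of 19145 (5.72%) had a UTR peak on either side, with every gene that shares an exon counted. Of 20 genes that regulate mRNAs through the 3′ UTR, 5 had one (25%, 11.2 to 46.9%), which is a description of a short list. They were the Argonaute gene Ago1, the AU-rich element binding protein gene Zfp36l1 (205 in the optimal set, with 119 in library 1 and 84.6 in library 2), the deadenylase subunit genes Pan3 (187) and Cnot1 (48.2), and the nonsense-mediated decay helicase gene Upf1 (121). Of 21 neuronal RNA-binding proteins, 3 had a UTR peak: the splicing regulators Rbfox3 (242), Celf1 (78.2) and Rbfox2 (21.0). None of 18 cleavage and polyadenylation factors had one, which with a list of this size allows a share of up to 17.6%.

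Of 23 axon guidance genes, 3 had a 3′ UTR peak. Ephb2, a receptor for ephrins, had a signal of 435, with 246 in library 1 and 195 in library 2, and a second, weaker 3′ peak of 368. Unc5c, a netrin receptor, had 259, with 155 and 102 in libraries 1 and 2, on an exact match, and its ligand Ntn1 had 110, with 64.7 and 44.9, also on an exact match. Of 29 hindbrain and cerebellar patterning genes, 2 had a UTR peak: the cyclin gene Ccnd1 (163) and the transcription factor gene Pax5 (85.2). In the neurite and synapse list, 1 of 22 had one, the cytoskeletal regulator gene Dpysl3 (363), and in the glia list 1 of 14, the calcium-binding protein gene S100b (132). Of 16 cohesin and CTCF factors, Adnp, whose product is a partner of chromatin remodellers, had a 5′ peak (38.2). Each of these shares had an interval that includes the 5.72% of all genes except that of the regulators acting through the 3′ UTR. That list had the highest share of 8 lists chosen with earlier results known. UTR length was not taken into account, although the share of genes with a 3′ UTR peak ran from 0.27% to 10.98% across its quartiles.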

How the data were processed

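CTCF ChIP-seq peaks of 2 libraries were read as deposited narrowPeak lists on mm10. The signal value is the authors' score with no stated unit. It was used within a list, and between libraries only side by side and by rank. Per the deposited descriptions, library lists came from alignments with a control alignment, and the optimal and conservative sets from IDR on single and pooled lists. Not given in the sources used here are the aligner, the caller and the IDR threshold. Control libraries were not used here. Summits were classed on chromosomes 1 to 19 in the order start site (1 kb), coding, UTR, other exon, intron, intergenic, with GENCODE vM21. The 14 bp consensus was searched on both strands of GRCm38, with repeats from its soft masking. Python 3.11.15, numpy 2.4.6, pandas 2.3.3 and scipy 1.17.1 were used, and the scan was tested on simulated data. Representative transcripts were 1 per gene, and 304 of 20640 genes were left out because their 3′ UTR was already counted. Named genes were the 10 strongest 3′ and 6 strongest 5′ members, the extremes of position and signal, the 3 genes with most peaks, and up to 4 per list. An item that this rule would name is not reported here. Members and the 8 gene lists were chosen with earlier results of these data known.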

Additional observations from a re-analysis of the deposited data

How the results depend on the processing

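Alternatives changed the peak set, the start-site distance (500 bp or 2.5 kb), the transcripts, merging of close summits, mismatches and windows. Keeping only the strongest 31343 optimal peaks left 636 members and 20.8 peaks per Mb of 3′ UTR, a motif share of 82.1% and an occupied share of 3′ UTR sites of 36.1%. The motif share was 39.7% with at most 1 mismatch, 89.1% with at most 3 and 60.1% within 25 bp. The occupied share was 92.9% for exact sites, 10.45% for sites with at most 2 mismatches and 42.3% within 25 bp, and 47.5% with identical sites counted once. Agreement with the libraries was 77.0% at a reciprocal overlap of 50%, and leaving out either library put it between 90.8% and 92.8%. The last alternative and the counting of identical sites once were chosen after the data were seen. Differences between sequence classes were not recomputed under these alternatives. The strand share of motifs in 3′ UTRs stayed within its interval in all 12 alternatives and the median signal in all 5. No paired analysis was possible because there is 1 group of 2 libraries. Read depth is unknown, so weak sites that were missed cannot be told from sites that were free.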
